A study of Mus musculus with 6 samples.

Results

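The genes C1qa, C1qb, C1qc, Csf1r, Cx3cr1, Tyrobp, Trem2, Aif1 and P2ry12 mark microglia, the resident macrophages of the brain, and several of them mark macrophages of other organs as well. They were picked by name and matched to the symbols in the record descriptions, and all 9 were found among 22924 gene features with tags. They were followed through 6 libraries of 3' cDNA tags from C57BL/6 mice aged 6 months, either wild type (Atxn2+/+) or homozygous for a knockout of Atxn2 (Atxn2-/-), the gene of the RNA-binding protein ataxin-2. Cerebellum, hippocampus and liver were each represented by 1 knockout and 1 wild-type library, and each library was a pool of 3 animals. Animals carry identical numbers across tissues in the titles, and the 3 tissues of a genotype may therefore be from the same 3 mice. The method, massive analysis of cDNA ends, yields 1 tag per transcript, so levels are given as CPM (gene tags scaled to a library of 1000000) and compared between genes without a correction for length. Where a pair of counts is given for a tissue, the knockout library comes first and the wild type second.

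Microglia settle the brain before birth and depend on the receptor kinase Csf1r, which binds the growth factors Csf1 and Il34. Trem2 senses lipids at the cell surface and signals through its adaptor Tyrobp, while Cx3cr1 and P2ry12 receive signals from neurons and from released nucleotides. C1qa, C1qb and C1qc encode the chains of C1q, the recognition unit of the classical complement pathway, and Aif1 encodes the calcium- and actin-binding protein known as Iba1. In liver, the resident macrophages are Kupffer cells, which share Csf1r, C1q and Tyrobp with microglia but are not known for Cx3cr1 or P2ry12.

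Promoters from RefSeq on GRCm38.p6 are shown for 2 genes with many liver tags, C1qb and C1qc, and for the 3 with few, Trem2, Cx3cr1 and P2ry12. The RefSeq promoter table held 6 of the 9 genes, and each entry runs from 250 bases before the start that the table uses to 50 after it. For C1qc and Aif1 that start lies inside the outermost end of the RefSeq gene. Capitals mark GAGGAA on either strand (TTCCTC when it lies on the opposite strand), a purine-rich core of the kind that the myeloid factor PU.1 recognises. C1qb lies at chr4:136886151-136886450 and C1qc at chr4:136892865-136893164, both on the minus strand. Trem2 lies at chr17:48346151-48346450 on the plus strand, Cx3cr1 at chr9:120068247-120068546 and P2ry12 at chr3:59262936-59263235, both on the minus strand.
C1qb: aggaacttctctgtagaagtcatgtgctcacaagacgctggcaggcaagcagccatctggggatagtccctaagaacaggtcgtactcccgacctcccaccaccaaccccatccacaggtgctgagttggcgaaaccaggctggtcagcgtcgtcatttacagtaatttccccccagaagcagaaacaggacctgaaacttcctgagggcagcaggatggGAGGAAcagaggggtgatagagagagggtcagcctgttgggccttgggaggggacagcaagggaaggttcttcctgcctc
C1qc: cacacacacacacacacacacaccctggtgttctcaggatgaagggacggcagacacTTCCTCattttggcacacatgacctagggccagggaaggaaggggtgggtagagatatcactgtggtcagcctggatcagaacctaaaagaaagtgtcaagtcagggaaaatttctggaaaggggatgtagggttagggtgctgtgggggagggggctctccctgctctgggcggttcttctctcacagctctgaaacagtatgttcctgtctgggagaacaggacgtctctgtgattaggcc
Trem2: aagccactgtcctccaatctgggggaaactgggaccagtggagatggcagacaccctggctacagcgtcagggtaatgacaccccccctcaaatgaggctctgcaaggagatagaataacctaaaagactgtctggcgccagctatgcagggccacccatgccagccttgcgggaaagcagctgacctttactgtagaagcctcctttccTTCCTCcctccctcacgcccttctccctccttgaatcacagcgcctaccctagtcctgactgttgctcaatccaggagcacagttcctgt
Cx3cr1: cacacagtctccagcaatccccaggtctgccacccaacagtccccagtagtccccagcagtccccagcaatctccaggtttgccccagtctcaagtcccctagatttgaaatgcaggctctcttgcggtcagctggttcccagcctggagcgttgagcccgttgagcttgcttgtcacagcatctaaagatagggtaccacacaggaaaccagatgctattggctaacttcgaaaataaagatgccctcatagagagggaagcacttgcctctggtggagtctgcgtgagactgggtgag
P2ry12: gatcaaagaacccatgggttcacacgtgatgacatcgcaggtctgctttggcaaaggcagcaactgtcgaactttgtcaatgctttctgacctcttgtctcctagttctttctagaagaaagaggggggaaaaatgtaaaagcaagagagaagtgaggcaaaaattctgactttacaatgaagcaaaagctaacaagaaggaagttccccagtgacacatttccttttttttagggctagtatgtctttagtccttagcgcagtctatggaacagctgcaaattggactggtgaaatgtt

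GAGGAA was present in 4 of the 6 promoters, those of C1qb, C1qc, Aif1 and Trem2, and in 28.3% of all 32851 RefSeq promoters of the same length. Counted from the start used by the table as 0, the matches began at -30 in C1qb, -193 in C1qc, -40 in Trem2 and -7 in Aif1. The longer GAGGAAGT, which contains GAGGAA, was in 1 of the 6, that of C1qc, and in 3.20% of all promoters. The promoters of Cx3cr1 and P2ry12 held neither. The 3 C1q genes are neighbours on chromosome 4, in the order C1qb, C1qc, C1qa, within 18719 bases, with gaps of 3600 and 2979 bases between them.

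Gene tags numbered 1774523 to 2727523 per library, and the targeted gene followed the labels: Atxn2 had 0, 1 and 2 tags in the knockout cerebellum, hippocampus and liver, against 167, 194 and 115 in the wild type. Defining markers of the tissues followed the labels as well. Clec4f, a Kupffer cell lectin, had 339 and 531 tags in the liver libraries and 0 to 9 in the brain libraries. Tmem119, a microglial surface protein, had 29 to 94 tags in the brain libraries and 1 and 5 in liver. Hepatocyte transcripts were counted in the brain libraries too. Alb, the serum albumin gene, gave 78242 and 119139 tags in liver, 578 and 1008 in cerebellum and 458 and 2465 in hippocampus. The other hepatocyte genes without Ttr, which the choroid plexus also expresses, brought this to 157757 and 228402, 855 and 1724, and 729 and 3691 tags, and Ttr itself gave 7929 and 11823 tags in cerebellum. Because these are bulk samples, fewer cells of a type and less RNA per cell cannot be told apart in any value below.

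C1qa was the most abundant of the 9 genes in every tissue, and Aif1 was the rarest in both brain regions. The cerebellar libraries gave 275 (knockout) and 313 (wild type) C1qa tags, the hippocampal ones 460 and 353 and the liver ones 221 and 488. After TMM scaling, which sets libraries to a common level by trimming extreme genes, its mean was 89.5 ± 6.12 CPM in cerebellum, 139 ± 18.4 in hippocampus and 277 ± 54.1 in liver (SD, n = 2 libraries, 1 of each genotype). On that scale both hippocampal libraries lay above both cerebellar ones, and both liver libraries above all 4 brain libraries.

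The other C1q chains followed the same order of tissues. For C1qb the counts were 79 and 69 (cerebellum), 118 and 119 (hippocampus) and 84 and 159 (liver), or 22.6 ± 2.68, 40.8 ± 2.47 and 96.8 ± 8.46 CPM (SD, n = 2). C1qc gave 69 and 73, 115 and 160, and 119 and 194 tags, or 21.6 ± 0.361, 47.6 ± 13.5 and 127 ± 2.31 CPM (SD, n = 2). Within neither gene did the libraries of different tissues overlap on this scale. Of all C1q tags, C1qa made up 52.1% to 68.8% per library, C1qb 15.2% to 19.8% and C1qc 16.0% to 28.1%, so the 3 genes kept their rank order apart from C1qb and C1qc, which traded places.

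Csf1r, the receptor on which macrophage survival depends, ranked second in all 3 tissues. Its counts were 108 and 159 (cerebellum), 271 and 281 (hippocampus) and 139 and 192 (liver), or 40.6 ± 10.0, 94.99 ± 7.61 and 137 ± 18.5 CPM (SD, n = 2). In liver it did not differ from C1qc beyond the spread between libraries. Tyrobp, the signalling adaptor of Trem2, gave 89 and 94, 163 and 149, and 94 and 159 tags, or 27.9 ± 0.432, 53.6 ± 0.480 and 102 ± 0.809 CPM (SD, n = 2). Its knockout and wild-type libraries lay closer together in every tissue than the tissues did. Aif1 was counted thinly, with 9 and 23 tags in liver, 6 and 9 in cerebellum and 17 and 9 in hippocampus.

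Cx3cr1, Trem2 and P2ry12 were the 3 genes with few liver tags. Trem2, the lipid-sensing receptor, had 5 and 7 tags in liver, 29 and 53 in cerebellum and 75 and 73 in hippocampus. P2ry12, the microglial nucleotide receptor, had 4 and 6 tags in liver, 27 and 30 in cerebellum and 77 and 76 in hippocampus. For both genes the liver libraries lay below all 4 brain libraries, by any of the scalings used.

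Cx3cr1, the receptor of the neuronal chemokine fractalkine, had 4 and 15 tags in liver, 65 and 73 in cerebellum and 137 and 169 in hippocampus. It is the least certain of the 9 counts, because 41 rows of the deposited tables name it, most of them jointly with other records. The counts above sum 15 rows, of which 12 also name a predicted gene or pseudogene and hold 122 tags. The 3 rows that name Cx3cr1 alone gave, in the same order of tissues, 3 and 5, 40 and 49, and 119 and 125 tags. Giving it every row that names it raised the counts to 13 and 42, 113 and 132, and 175 and 227. Liver was lowest and hippocampus highest under each of these readings. Each of the other members had a single row.

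**Figure D1:**
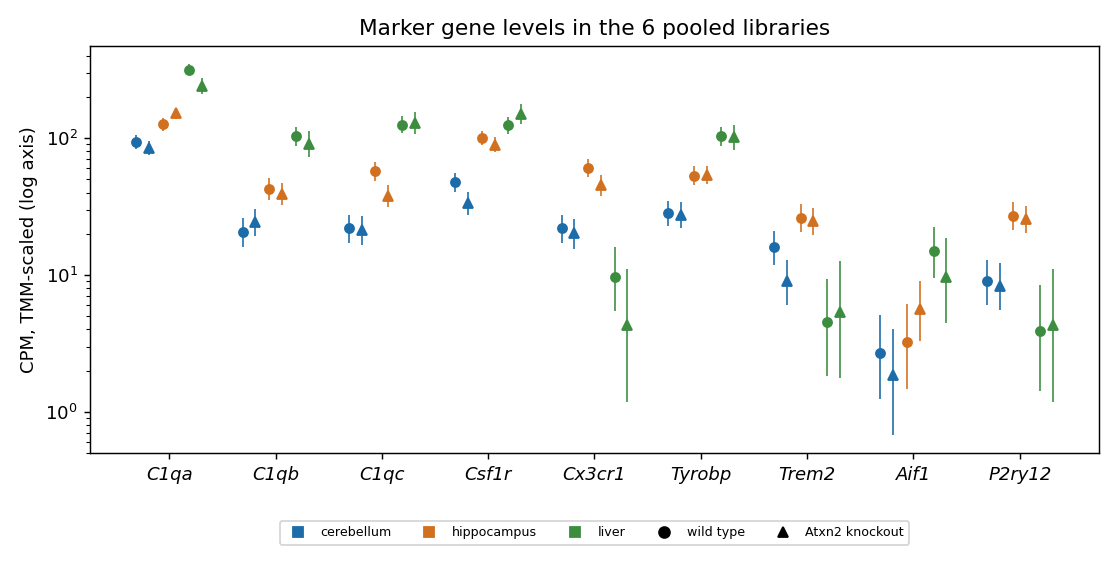
CPM after TMM scaling (log axis) for the 9 genes in the 6 pooled libraries, with colour for tissue, circles for wild type and triangles for Atxn2 knockout. Bars are exact 95% Poisson intervals of the tag count. Of the 9 genes, 6 are highest in liver, and Cx3cr1, Trem2 and P2ry12 are lowest there.

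The order of the genes by level could be resolved only in part. In cerebellum C1qa, Csf1r and Tyrobp led, C1qb, C1qc and Cx3cr1 followed without differing beyond the spread between libraries, then Trem2 and P2ry12, which overlapped, and Aif1. In hippocampus C1qa and Csf1r led, Tyrobp, Cx3cr1, C1qc and C1qb overlapped from neighbour to neighbour, and P2ry12 and Trem2 overlapped below them. In liver C1qa led, Csf1r overlapped with C1qc and Tyrobp with C1qb, and Aif1 stood above Cx3cr1 and Trem2, which overlapped, with P2ry12 listed last. The last 3 rest on 4 to 15 tags per library and Aif1 on 9 and 23. From the rows that name it alone Cx3cr1 (3.24 CPM) came below P2ry12 (4.10 CPM). With every row that names it, Cx3cr1 (20.6 CPM) came above Aif1 (12.3 CPM). Neither the order of the last 3 nor the place of Aif1 against Cx3cr1 was therefore resolved.

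Hippocampus held more RNA of these genes than cerebellum. In a fit over all 6 libraries with genotype as a block, 8 of the 9 genes were higher in hippocampus and none lower (edgeR quasi-likelihood test, two-sided, Benjamini-Hochberg adjusted p under 0.05 over 12906 features), where 15.8% of all features were higher and 13.5% lower. The log2 difference was 1.60 ± 0.26 (SE) for P2ry12 (edgeR adjusted p = 5.31e-05) and 1.33 ± 0.21 for Cx3cr1 (edgeR adjusted p = 3.10e-05). Csf1r differed by 1.24 ± 0.19, C1qc by 1.13 ± 0.21, Trem2 by 1.05 ± 0.26, Tyrobp by 0.95 ± 0.18, C1qb by 0.86 ± 0.20 and C1qa by 0.65 ± 0.18 on the log2 scale. Aif1 differed by 0.96 ± 0.52 and did not pass (edgeR adjusted p = 0.191). The median of the 9 was 1.05, beside 0.00 for all features.

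Calls for C1qa, C1qb and Trem2 rested on single libraries. Without the knockout cerebellum the edgeR adjusted p was 0.261 for C1qa and 0.309 for Trem2, without the wild-type cerebellum it was 0.173 for C1qa and 0.196 for C1qb, and without the knockout hippocampus it was 0.347 for C1qa and 0.145 for Trem2. Each tissue had 2 libraries, a knockout pool and a wild-type pool, and no replicate pools of the same genotype. The p-values of the tissue comparisons therefore rest on how far the tissue differences disagreed between the genotypes, together with counting noise. They do not measure a spread between replicate pools or between animals.

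Other genes of microglia also stood higher in hippocampus. Of 20 listed, 19 had tags and 18 were tested, and 14 were higher and none lower in the same edgeR fit, with a median log2 difference of 1.18 and a range of 0.39 to 3.32. Gpr34, P2ry13 and Cyth4, counted among those higher, had 2 to 7 tags per cerebellar library. They passed the filter on low counts through hippocampus alone, so their direction was fixed by selection. Tmem119 gave 85 and 94 tags in hippocampus against 37 and 29 in cerebellum, a log2 difference of 1.61. Genes of macrophages at the brain's borders gave no such calls. Of 10 listed, 5 were tested, none was higher and 1, the transcription factor gene Maf, was lower in hippocampus, with a log2 difference of -0.73. The median was -0.38, and Stab1 alone lay above 0, at 0.46. Cd163 had 4 to 7 tags per brain library, Mrc1 6 to 14 and Pf4 6 to 16. At this depth a missing call does not show that these genes differed from the microglia genes.

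Liver differed from the brain regions in both directions. Against hippocampus, 6 were higher in liver (C1qa, C1qb, C1qc, Csf1r, Tyrobp and Aif1) and 3 lower (Cx3cr1, Trem2 and P2ry12), where edgeR called 33.3% of all features higher and 35.3% lower, so the share of members called lower was near that of all features. The log2 difference, liver minus hippocampus, was -2.88 ± 0.31 (SE) for Cx3cr1 (edgeR adjusted p = 3.99e-08), -2.75 ± 0.39 for P2ry12 (edgeR adjusted p = 2.49e-06) and -2.48 ± 0.40 for Trem2 (edgeR adjusted p = 1.29e-05). It was 0.94 ± 0.18 for C1qa, 1.20 ± 0.19 for C1qb, 1.36 ± 0.19 for C1qc, 0.87 ± 0.18 for Tyrobp, 1.45 ± 0.46 for Aif1 and 0.46 ± 0.19 for Csf1r. Against cerebellum the same 6 genes were higher, by 1.58 to 2.49 on the log2 scale, and the same 3 lower, with 32.6% of all features higher and 35.5% lower in edgeR (68.1% either way). There Cx3cr1 differed by -1.55 ± 0.35, Trem2 by -1.42 ± 0.44 and P2ry12 by -1.15 ± 0.47. Aif1, with 6 to 17 tags per brain library, passed the filter on low counts only with the liver libraries. Its upward direction in both comparisons was therefore favoured by selection.

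The upward direction in liver depended on the scaling. The 10 most abundant features took 19.3% and 20.4% of gene tags in the liver libraries and 5.81% to 7.06% in the brain libraries, and the TMM factors were 0.521 and 0.567 in liver and 1.29 to 1.41 in brain. Scaling to library totals moved the median of all features from -0.13 to -1.32 for liver minus hippocampus, from -0.15 to -1.46 for liver minus cerebellum, and from 0.00 to -0.12 for hippocampus minus cerebellum. On library totals, no member was called higher in liver than in hippocampus. Aif1 then differed by 0.26, C1qc by 0.17 and C1qb by 0.0021, C1qa by -0.26, Tyrobp by -0.32 and Csf1r by -0.74, and of these Csf1r alone passed, as lower in liver (edgeR adjusted p = 0.00139). Against cerebellum, C1qb, C1qc and Tyrobp remained higher in liver on library totals, by 0.73, 1.17 and 0.50.

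Cx3cr1, Trem2 and P2ry12 were lower in liver than in either brain region under both scalings. Some calls rested on 1 library. Trem2 against cerebellum had an edgeR adjusted p of 0.172 without the wild-type cerebellum and 0.143 without the wild-type liver. P2ry12 against cerebellum had values of 0.053 to 0.216 without either cerebellum or either liver library. Csf1r against hippocampus reached 0.0807 to 0.510 without any of the 5 libraries other than the wild-type liver, and Aif1 0.372 without the wild-type hippocampus and 0.240 without the wild-type liver. DESeq2 gave an adjusted p of 0.105 for P2ry12 against cerebellum, and 0.252 for Csf1r and 0.0616 for Aif1 against hippocampus. Csf1r against hippocampus also missed in edgeR with DESeq2 size factors (adjusted p = 0.0567) and with no filter (adjusted p = 0.112).

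Ratios within a library need no scaling, and they were lower in liver for the same 3 genes. Per 100 Csf1r tags, Cx3cr1 gave 45.9 to 60.2 in the brain libraries and 2.88 and 7.81 in liver. Trem2 gave 26.0 to 33.3 in brain and 3.60 and 3.65 in liver, and P2ry12 18.9 to 28.4 in brain and 2.88 and 3.12 in liver. The liver libraries lay far below every brain library for these 3 genes. C1qc gave 42.4 to 63.9 in brain and 85.6 and 101 in liver, above every brain library, and Aif1 gave 3.20 to 6.27 in brain and 6.47 and 12.0 in liver. C1qa, C1qb and Tyrobp overlapped between liver and brain; Tyrobp, for one, gave 53.0 to 82.4 in brain and 67.6 and 82.8 in liver.

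**Figure D2:**
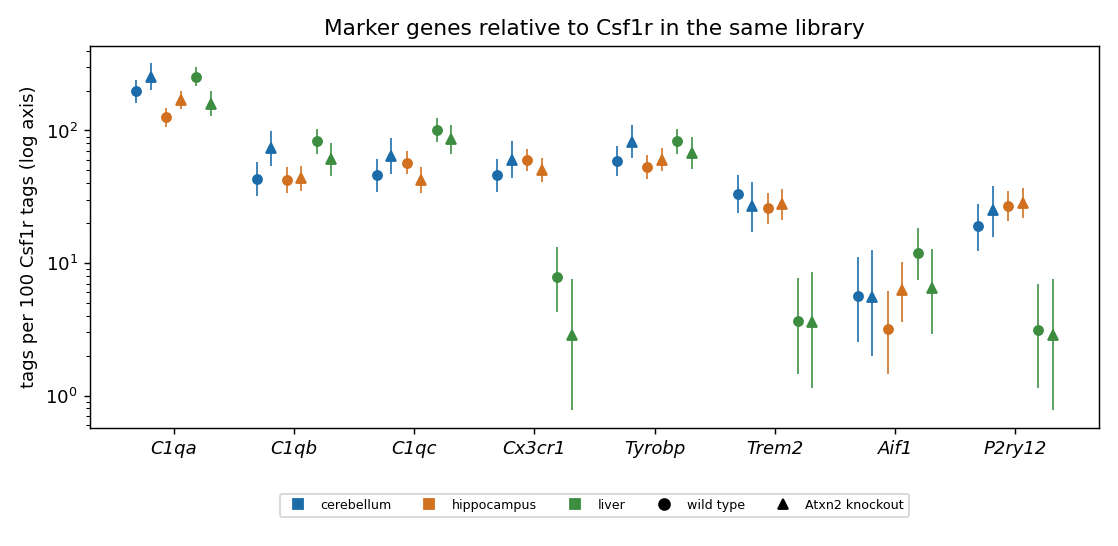
Tags of 8 genes per 100 Csf1r tags of the same library (log axis), with colour for tissue, circles for wild type and triangles for Atxn2 knockout. Bars are exact 95% counting intervals. Cx3cr1, Trem2 and P2ry12 fall from between 18.9 and 60.2 in the brain libraries to between 2.88 and 7.81 in liver, while Tyrobp and the C1q genes do not fall below the brain range.

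The few liver tags of the 3 genes were set beside genes of cells that liver lacks. As CPM of the library total, the liver level of P2ry12 was 6.84% of the hippocampal level in the knockout and 6.19% in the wild type. Trem2 stood at 8.78% and 7.52%, and Cx3cr1 at 3.84% and 6.96%, or 3.32% and 3.14% from the rows that name it alone. Of other microglia genes, Siglech stood at 8.63% and 8.32%, Tmem119 at 1.55% and 4.17%, and Fcrls had 1 and 0 liver tags. The 8 neuronal genes together stood at 1.36% and 1.84%, and the 8 oligodendrocyte genes at 2.00% and 2.31%. The shares of the single genes rest on 0 to 15 liver tags, and the part of carried-over brain RNA in them was not tested.

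Lists of other macrophage genes differed in how liver held them. Of the 18 other microglia genes tested against hippocampus, 3 were higher in liver, Unc93b1, Sall1 and Fcer1g, and 10 were lower, with a median log2 difference of -1.26 beside -0.13 for all features, of which 33.3% were higher and 35.3% lower. Fcrls, a microglial Fc receptor-like gene, gave 79 and 84 tags in hippocampus and 1 and 0 in liver. Ctss, the lysosomal protease cathepsin S and the most abundant of the list, gave 246 and 261 against 94 and 143 and did not differ on the TMM scale (log2 difference 0.09, edgeR adjusted p = 0.690). All 8 of the Kupffer cell genes tested were higher in liver, with a median of 7.16. The 5 border macrophage genes tested were also all higher, with a median of 2.99. The Kupffer cell genes were listed as liver markers, and apart from Slc40a1 they had 0 to 9 tags per brain library. Those genes passed the filter on low counts through liver alone, so their direction was fixed by selection. Cd163 of the border list, with 4 to 7 tags per brain library, entered likewise. Gpr34, P2ry13, Cyth4 and Hpgds of the microglia list were called lower in liver. They passed the filter only with the hippocampal libraries, which favoured that direction. These list counts are on the TMM scale, and library totals were not tried for them. The Kupffer cell list without Slc40a1, which other cells also express, gave 2 to 19 tags per brain library in 8 genes and 607 and 1013 in liver.

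**Figure D3:**
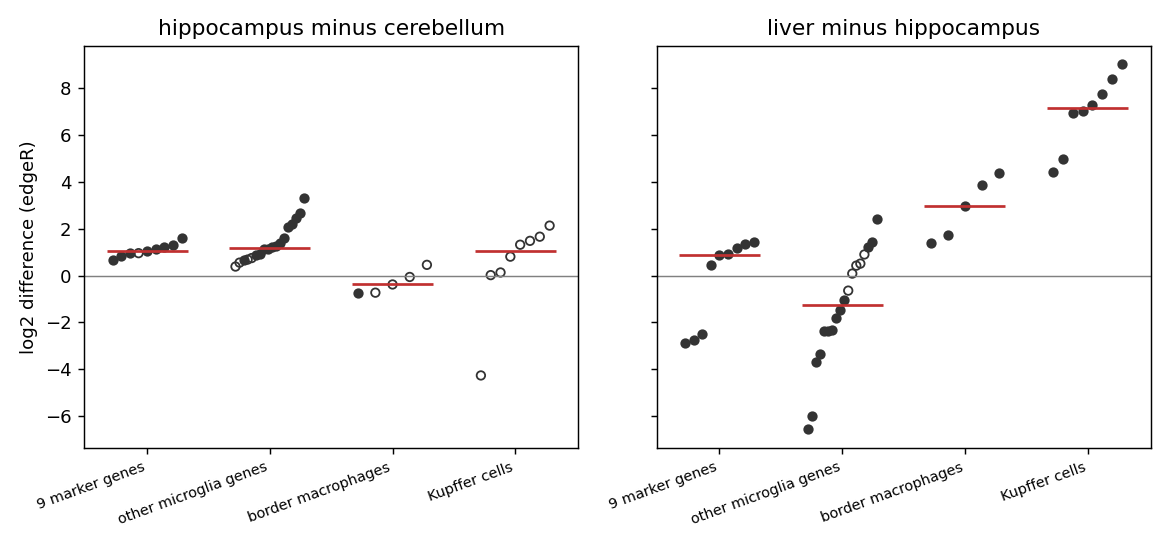
Log2 differences from edgeR for hippocampus minus cerebellum and liver minus hippocampus, 1 point per gene, for the 9 marker genes, other microglia genes, border macrophage genes and Kupffer cell genes. Filled points have an adjusted p under 0.05 and red lines are medians. In the liver comparison the marker genes split into 6 above 0 and 3 below. Of those above, Aif1 passed the filter on low counts only with the liver libraries. All 8 Kupffer cell genes lie above 0, most of them having passed the filter through liver alone.

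The comparison the study was built on, knockout against wild type, gave no call for any of the 9 genes across tissues. In the edgeR fit with tissue as a block all 9 were tested and 0 passed, where 1 feature was higher and 10 lower of 11375 (0.00879% and 0.0879%, together 0.0967%). At an unadjusted p under 0.05 the fit held 554 features, none of them a member, and DESeq2 and limma voom also called 0 members. The lowest unadjusted p was that of Cx3cr1, at 0.0871 (edgeR, adjusted p = 0.998), with a log2 difference of -0.35 ± 0.19 (SE). It was -0.20 from the rows that name Cx3cr1 alone (edgeR, unadjusted p = 0.369) and -0.42 from every row that names it (edgeR, unadjusted p = 0.0210, adjusted p = 0.999), and -0.58 without cerebellum. Trem2 had -0.33 ± 0.25, from -0.09 without cerebellum to -0.66 without hippocampus. C1qc had -0.21 ± 0.16 and Csf1r -0.13 ± 0.16, and the other 5 lay between -0.08 and -0.01. The p-values rest on agreement between 3 tissues, which may be those of a single pool per genotype, and not between animals, and a p that misses the threshold does not show that the genotypes were alike.

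Within a tissue there was 1 library per genotype, so each ratio has a counting interval only and no replicate check. In cerebellum, Csf1r was 1.42-fold lower in the knockout (108 against 159 tags; log2 ratio -0.51, 95% interval -0.88 to -0.15). Trem2 was 1.77-fold lower there (29 against 53 tags; -0.82, -1.53 to -0.14). These were 2 of 9 members whose interval lay below equality and 0 lay above, where 5.72% of 13903 features lay below and 5.45% above. The median of the 9 was -0.12, beside -0.00 for all features, and 8 of the 9 ratios were below 0. The members' summed tags, 747 against 873, gave a log2 ratio of -0.18 (-0.32 to -0.04). The summed ratio was -0.07 (-0.17 to 0.04) in hippocampus, from 1433 against 1389 tags, and -0.13 (-0.27 to 0.0059) in liver, from 679 against 1243. On library totals the liver sum lay below equality as well, at -0.25 (-0.39 to -0.12). The cerebellar sum was then -0.18 (-0.32 to -0.04) and the hippocampal sum -0.08 (-0.19 to 0.03).

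In hippocampus, C1qc was 1.503-fold lower in the knockout (115 against 160 tags; log2 ratio -0.59, 95% interval -0.95 to -0.23), while its neighbour C1qa was 1.21-fold higher (460 against 353 tags; 0.27, 0.07 to 0.47). C1qb, with 118 against 119 tags, had a ratio of -0.12 (-0.50 to 0.26). The C1qa share of C1q tags was 66.4% (95% interval 62.7% to 69.9%) in the knockout and 55.9% (51.9% to 59.8%) in the wild type. Cx3cr1 was 1.33-fold lower (137 against 169 tags; -0.41, -0.75 to -0.08), but not from the rows that name it alone, with 119 against 125 tags. With those rows 1 member, C1qc, lay below equality instead of 2, where 8.37% of 14105 features lay below and 8.34% above. Trem2 and Csf1r, low in the knockout cerebellum, had hippocampal ratios of -0.07 (-0.56 to 0.41) and -0.16 (-0.41 to 0.08).

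In liver, C1qa was 1.32-fold lower in the knockout (221 against 488 tags; log2 ratio -0.40, 95% interval -0.64 to -0.17), the 1 member whose interval excluded equality, where 7.02% of 13490 features lay below and 7.85% above. Its direction was opposite to that in hippocampus. Csf1r had a ratio of 0.28 (-0.05 to 0.60) and C1qc of 0.04 (-0.30 to 0.37). Csf1r lay above equality when DESeq2 size factors replaced TMM, at 0.38. Cx3cr1, with 4 against 15 tags, had a ratio of -1.16 (-3.21 to 0.49), and was the 1 gene below 0 in all 3 tissues; from the rows that name it alone, 3 against 5 tags, its liver ratio was 0.0052. With every row that names it, Cx3cr1 lay below equality in liver (13 against 42 tags; -0.95, -1.97 to -0.02) and in hippocampus (175 against 227 tags; -0.49, -0.78 to -0.20). With the summed rows no member lay beyond equality in the same direction in 2 tissues, and none reached a 2-fold difference with an interval that excluded equality, which 1.88%, 3.5% and 4.05% of features did in cerebellum, hippocampus and liver.

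Tyrobp had ratios near 0 in all 3 tissues. Its knockout to wild-type log2 ratio was -0.03 (-0.47 to 0.40) in cerebellum, 0.02 (-0.31 to 0.35) in hippocampus and -0.02 (-0.40 to 0.36) in liver. A 2-fold difference lies outside each of these counting intervals, as it does for C1qa, C1qb, C1qc and Csf1r. For Aif1 in cerebellum, and for P2ry12 and Trem2 in liver, the intervals took in a 2-fold difference both ways, and no such difference was detectable at this depth.

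**Figure D4:**
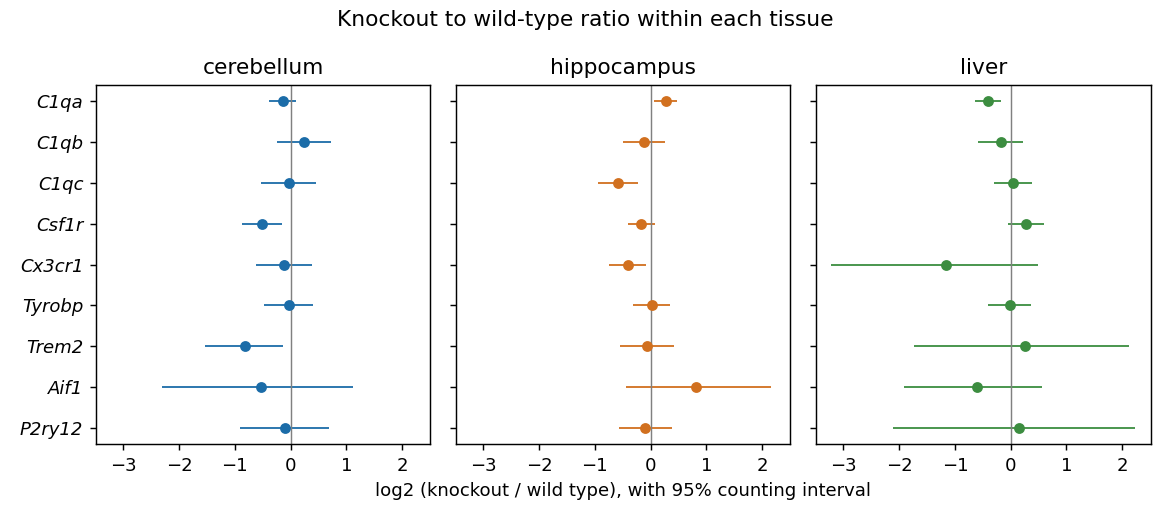
Log2 ratio of knockout to wild type for the 9 genes in each tissue after TMM scaling, with 95% counting intervals from 1 library per genotype. The intervals of Csf1r and Trem2 in cerebellum, C1qa, C1qc and Cx3cr1 in hippocampus and C1qa in liver exclude 0.

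Markers of other cells moved with genotype in the same libraries. All 10 hepatocyte genes lay below equality in knockout cerebellum and in knockout hippocampus, where 5.72% and 8.37% of all features did. Their median log2 ratios were -1.29 and -2.36. In liver 9 of the 10 lay above equality and 0 below, with a median of 0.43, where 7.85% of all features lay above. Kupffer cell genes other than Slc40a1 gave 2 and 19 tags in hippocampus, at most 2.39% of their liver level, and Clec4f had 0 against 9. The 10 monocyte and neutrophil genes summed, after TMM scaling, to 247 and 123 CPM in liver, 72.2 and 43.5 in cerebellum and 14.9 and 24.6 in hippocampus. Of their tags, Lcn2 gave 157 of 228 and 111 of 191 in liver, and 12 of 45 and 40 of 69 in hippocampus. In cerebellum S100a8 (125 and 57 tags) and S100a9 (56 and 24) lay above equality and Retnlg (0 and 7) below. The interval of Lcn2 there (21 and 35 tags; -1.54 to 0.13) took in equality. The cerebellar sums therefore mix genes on both sides of equality. The 10 border macrophage genes summed, in that order, to 228 and 274, 49.9 and 47.7, and 35.0 and 40.4 CPM. The 5 red blood cell genes summed to 1002 and 534, 811 and 635, and 211 and 139 CPM. Of them, 5, 3 and 3 lay above equality in the knockout, where 7.85%, 5.45% and 8.34% of all features did. Among them, the globin gene Hba-a1, was higher across tissues (log2 difference 0.88 ± 0.15, edgeR adjusted p = 0.0200). Their part in the ratios above was not tested.

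The wider microglial list was also without a genotype call across tissues. Of its 15 genes tested across tissues, 0 passed in edgeR, with a median log2 difference of -0.10. Within cerebellum no gene of 17 lay beyond equality. In hippocampus Cyth4, a guanine nucleotide exchange factor gene, lay above (50 against 27 tags; 0.78, 0.07 to 1.51) and Cd53, a tetraspanin gene, below (23 against 37 tags; -0.80, -1.62 to -0.01). In liver Selplg, the P-selectin ligand gene, lay above (13 against 7 tags). Genes that microglia raise around plaques and in degeneration were likewise without a call across tissues: 15 were tested and 0 passed. Within tissues, 1 of 16 measured lay above equality and 4 below in cerebellum, 3 and 4 of 16 in hippocampus, and 3 and 2 of 17 in liver. The shares over all features were 5.45% and 5.72%, 8.34% and 8.37%, and 7.85% and 7.02%. Apoe was at -0.11 (-0.15 to -0.06) in hippocampus and 0.49 (0.47 to 0.50) in liver, where it had 62203 and 74159 tags. Itgax, Cst7 and Clec7a had 0 to 3 tags in each brain library.

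The ligands of the receptors followed their own tissue order. Il34, the Csf1r ligand made by neurons, had 7 and 5 tags in liver, 19 and 16 in cerebellum and 96 and 58 in hippocampus, and was higher in hippocampus than in cerebellum by 2.28 on the log2 scale (edgeR adjusted p = 2.6e-06). Csf1 gave, in that order, 7 and 30, 37 and 41, and 47 and 54 tags and did not pass in any tissue contrast. Cx3cl1, the fractalkine ligand of Cx3cr1, gave 3 and 7, 87 and 105, and 571 and 683 tags, and was lower in liver than in hippocampus by a log2 difference of -5.82. Cx3cl1 and Cx3cr1 were thus both highest in hippocampus and lowest in liver. Within hippocampus the knockout ratio was 0.62 (0.13 to 1.11) for Il34 and -0.37 (-0.53 to -0.21) for Cx3cl1.

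Genes acting below the receptors were rare. Syk and Plcg2, a kinase and a phospholipase downstream of Trem2 and Tyrobp, gave 2 to 16 and 3 to 14 tags per library, and Inpp5d, a phosphatase that opposes them, 3 to 17. Hcst, the alternative adaptor of Trem2, gave 2 to 5 and Vav1 3 to 13. Irf8 and Spi1, the latter counted under its older symbol Sfpi1, encode transcription factors of the macrophage lineage and gave 5 to 21 and 2 to 17 tags. Irf8, Spi1 and Vav1 were higher in liver than in hippocampus on the TMM scale, by 1.55, 2.94 and 1.83. Spi1 and Vav1, with 2 to 7 tags per brain library, passed the filter on low counts through liver alone. The direction of these 2 genes was therefore fixed by selection.

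The complement components that act with or after C1q were liver genes. C1ra and C1s, the proteases bound to C1q, gave 499 and 702 and 383 and 652 tags in knockout and wild-type liver, against 8 to 17 and 1 to 8 in the brain libraries. C4b gave 1932 and 2433, C3 5036 and 8911, C2 189 and 257 and Serping1, the C1 inhibitor, 1461 and 2102. In liver the C1q genes therefore stood below C4b and C3, and in brain C1qa stood above C4b and C3, with 275 to 460 tags against 52 to 124 and 15 to 76. Of the complement receptors, Itgam gave 0 to 11, Itgb2 3 to 15, C3ar1 1 to 8 and C5ar1 0 to 2 tags, and C1rb had 0 to 5.

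Of the 21 genes of these pathways, 10 were tested across tissues for genotype and 0 passed in edgeR. Within hippocampus 5 of 17 lay below equality (C3, C1s, Serping1, C4b and Cx3cl1) and 1 above (Il34), with a median log2 ratio of -0.50, beside 8.37% below and 8.34% above over all features. C3 had 17 tags in the knockout and 76 in the wild type there, a ratio of -2.27 (-3.12 to -1.50), and 15 and 37 in cerebellum, a ratio of -1.26 (-2.23 to -0.35). The hepatocyte genes moved in the same direction in both regions, as given above, and their part in the C3 ratios was not tested. In liver the C3 ratio was -0.08 (-0.13 to -0.03), with Csf1 also below equality and C4b, C1ra, C2 and Serping1 above, beside 7.02% and 7.85% of all features.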

How the data were processed

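Tags of polyadenylated RNA were counted in 6 libraries, 1 for each genotype and tissue, each pooling 3 animals. The deposited tables hold raw counts of sense and antisense tags per RefSeq record, not normalized, per the file headers. The submitters' processing notes name CASAVA 1.8.2 and the build mm9, but a GRCm38 sequence set is named in the tables. Which aligner was used is not stated in the labels or headers. The sample labels (hippocampus, 6 months) were followed where the protocol says midbrain and weeks.

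Counts of sense tags were added up for each gene symbol. A row can join up to 3 records; it was given to a named gene when its other records were predicted genes or pseudogenes, which matters for Cx3cr1 alone among the 9. Sense tags that name no gene (25.8% to 33.5%) stayed out of library sizes and tests, and antisense tags were 7.75% to 10.5% of all tags. The antisense tags were not used.

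Counts were tested with edgeR 4.0.16 (TMM, filterByExpr, quasi-likelihood test, Benjamini-Hochberg over all features tested) in R 4.3.3. The genotype fit had tissue as a block and the tissue fit had genotype as a block. Within a tissue the 2 scaled counts were compared by an exact Clopper-Pearson 95% interval, which covers counting error only, over features with a mean of at least 1 CPM. A count of 0 was set to 3 for a ratio. Alternatives were DESeq2 1.42.0, its size factors, limma 3.58.1 voom, library totals, no filter, no block, other row rules and libraries left out. The fits were tested on simulated data. The members, gene lists and tests were chosen with earlier results of these data known. All 9 members and all pathway partners were named; of other lists the most abundant gene, those called for genotype and the extreme knockout ratios at 5 or more CPM. Other genes (Fcrls, Maf, Unc93b1, Sall1, Fcer1g, Itgax, Cst7, Clec7a and Tmem119 in tissue comparisons) were chosen after their values were seen. So were Gpr34, P2ry13, Hpgds, Mrc1 and Cd163. A result for 1 gene is not reported here.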

Additional observations from a re-analysis of the deposited data

Results flagged for a closer look

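C1qa moved in opposite directions in hippocampus and liver. Its log2 ratio of knockout to wild type was 0.27 in hippocampus, from 460 and 353 tags, and -0.40 in liver, from 221 and 488 tags, and both 95% counting intervals excluded equality. The ratios differed by 0.67 on the log2 scale. The difference was not tested, because each tissue has 1 library per genotype and a model with an interaction has no residual degrees of freedom.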

How the results depend on the processing

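No member passed the genotype test under any alternative run. The features called higher and lower (1 and 10 as reported) were 0 and 5 with DESeq2 size factors, 25 and 83 with no filter, 0 and 2 with DESeq2, and 0 and 0 with no tissue block; 6 were lower with limma voom and 0 higher with rows by last name. Leaving out a tissue gave 5 to 21 higher and 17 to 89 lower. Members near 0 changed sign in that fit: Tyrobp was 0.0077 with DESeq2 size factors and 0.0075 with DESeq2, Csf1r 0.0041 with no tissue block and 0.0099 without cerebellum, Aif1 0.035 without cerebellum, C1qb 0.0054 and C1qc 0.0028 without hippocampus, and C1qa 0.073 and C1qb 0.032 without liver. With a tissue left out these values reached down to -0.28 for C1qa, -0.18 for C1qb, -0.36 for C1qc, -0.31 for Csf1r and -0.58 for Aif1. Aif1 had no value without liver, where it fell below the filter.

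On library totals, features higher and lower were 2015 and 8585 for liver minus cerebellum, with 3 members higher, and 2181 and 8034 for liver minus hippocampus, with 0 members called higher: C1qa was at -0.26, Csf1r at -0.74, Tyrobp at -0.32, Aif1 at 0.26, C1qc at 0.17 and C1qb at 0.0021. The summed level of the 9 genes, 247, 485 and 769 CPM in cerebellum, hippocampus and liver, was 348, 631 and 419 on library totals. With a library left out, 1 to 3 members were lower in liver than in cerebellum. For hippocampus minus cerebellum, 2036 features were higher and 1743 lower, against 1151 and 783 with DESeq2, and 1016 to 2625 and 820 to 2265 with a library left out. DESeq2 called 6 members higher there, with adjusted p = 0.0895 for C1qa and 0.0962 for Trem2.

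Within hippocampus 1 member was lower with rows of 1 symbol or with the highest row per symbol. Within liver 1 was higher with DESeq2 size factors, and 2 (C1qa and Cx3cr1) were lower with rows by last name, an alternative chosen after seeing the data. The cause of these shifts was not tested. No paired analysis was possible because each group holds 1 library, so that groups share fewer than 2 replicate numbers; the tissue and genotype blocks of the reported fits are the sole pairing.

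Depth limits Aif1 everywhere and Cx3cr1, Trem2 and P2ry12 in liver, where they had 4 to 23 tags.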

Other observations

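The features whose profile over the 6 libraries lay nearest to the average profile of the 9 genes were Arpc3, Foxo1, Gabarapl1, Rreb1 and Fam3c. Likeness was the root mean square difference between mean-centred log2(CPM + 1) profiles, over 9547 features with a mean of at least 10 CPM. The differences were 0.048, 0.0662, 0.0892, 0.111 and 0.114, against a median of 0.836 for all features. The members themselves lay farther from their own average, from 0.391 for Csf1r to 1.25 for Cx3cr1, so the average describes none of them closely.

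Lymphocyte genes, with the knockout first, gave 30 and 67 tags in liver, 25 and 15 in cerebellum and 24 and 16 in hippocampus, or 32.4 and 43.3, 7.74 and 4.50, and 7.94 and 5.71 CPM after TMM scaling.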
